A study of Homo sapiens with 8 samples.

Results

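The HOX genes are the clustered homeobox genes, which encode transcription factors that give cells their position along the body axis. They were taken as the protein-coding genes whose symbol is HOXA, HOXB, HOXC or HOXD followed by a number, and 39 of 20163 protein-coding genes met that rule. HOXA on chromosome 7 held 11 of them, HOXB on chromosome 17 held 10, and HOXC on chromosome 12 and HOXD on chromosome 2 held 9 each. G-quadruplexes (G4s), structures of stacked guanine tetrads in DNA, had been mapped genome-wide by G4 ChIP-seq with the antibody BG4 in unperturbed K562 cells, a chronic myelogenous leukemia line, and HepG2 cells, a hepatocellular carcinoma line. No treatment or engineered allele is given for either line, and each stands for 1 tumour-derived line rather than for a tissue. The sample list names 3 G4 ChIP libraries and 1 input library for each line. What was deposited is 4 lists of genomic intervals on hg19: a high-confidence list of stretches called in 5 or more of 8 K562 replicates, or in 6 or more of 9 HepG2 replicates, and a lower-confidence list of stretches called in at least 2. The lists hold 9205 and 19249 intervals in K562 and 8805 and 28387 in HepG2, with no count, height or replicate value for any interval, so sequencing depth is unknown and the spread between replicates could not be taken into account. The input libraries have no list of their own here, and read depth and the replicate rule cannot be told apart from the cell line.

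HOX genes lie in the order in which they are used along the body axis: genes with low numbers act toward the head and genes with high numbers toward the tail and limbs. Genes that carry the same number in different clusters are paralogs of one another. In cells of the adult body, Polycomb proteins keep many HOX genes silent with a repressive histone mark, whereas trithorax-type MLL proteins keep others active, and the choice of active HOX genes is a lasting record of a cell's origin. G4s can form where several runs of guanines lie close together on a strand, and the antibody BG4 binds the folded structure.

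The stretches mapped in each cluster are represented by 5 sequences. They are high-confidence intervals at HOXB7 and in HOXC and, since HOXA and HOXD held no high-confidence interval, the widest lower-confidence interval of those 2 clusters. The HOXB7 interval is the narrower of the HOXB high-confidence intervals. The wider, in the HOXB9 promoter, is given further on by short stretches only. An interval at HOXA5 with no run of 3 G on either strand was added after its values were seen. All 5 sequences are read from GRCh37 on the plus strand, 5′ to 3′. Capitals mark runs of at least 3 G, the unit from which a G4 is built.
HOXB7 intron, K562 high-confidence, chr17:46708621-46708718: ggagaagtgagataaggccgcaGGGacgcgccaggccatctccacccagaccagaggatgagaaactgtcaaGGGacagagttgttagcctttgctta
HOXC4 and HOXC6 introns, K562 high-confidence, chr12:54411738-54411914: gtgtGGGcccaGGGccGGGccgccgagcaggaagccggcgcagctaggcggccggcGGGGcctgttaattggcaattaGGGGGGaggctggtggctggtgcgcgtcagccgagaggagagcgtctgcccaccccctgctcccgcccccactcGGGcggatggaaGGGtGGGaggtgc
HOXA4 promoter, HepG2 lower-confidence, chr7:27170588-27170761: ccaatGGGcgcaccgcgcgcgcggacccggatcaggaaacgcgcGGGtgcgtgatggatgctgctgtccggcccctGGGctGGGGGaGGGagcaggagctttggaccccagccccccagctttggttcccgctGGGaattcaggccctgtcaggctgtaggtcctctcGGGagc
HOXA5 promoter, HepG2 lower-confidence, chr7:27183378-27183449: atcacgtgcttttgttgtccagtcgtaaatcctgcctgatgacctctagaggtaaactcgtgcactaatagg
HOXD3 intron, K562 lower-confidence, chr2:177005287-177005479: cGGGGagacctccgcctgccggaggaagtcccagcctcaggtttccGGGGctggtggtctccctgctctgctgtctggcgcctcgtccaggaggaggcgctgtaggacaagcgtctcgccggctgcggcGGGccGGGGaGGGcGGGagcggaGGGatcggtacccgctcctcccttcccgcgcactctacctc

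A G4 motif was counted where 4 runs of at least 3 G are joined by loops of 1 to 7 bases, on either strand. Loop bases could be G, so a run of 7 G could serve as 2 runs joined by a loop of 1 base. The minus-strand HOXB9 motif was counted in this way. The HOXB9 interval held 3 such motifs, 2 on the plus strand and 1 on the minus strand, and the HOXC interval held 1, on the minus strand. The HOXD3 interval held 1 motif on the plus strand, which is the strand of that gene. HOXB9 is read from the minus strand, so its plus-strand motifs lie on the strand opposite to the coding sequence. The motifs shown are given on the strand that carries their G runs.
HOXB9 motif, chr17:46704031-46704047, minus strand: GGGaGGGGGGGaccGGG
HOXB9 motif, chr17:46704161-46704177, plus strand: GGGtcGGGGaGGGaGGG
HOXC4 and HOXC6 motif, chr12:54411864-54411885, minus strand: GGGGGcGGGagcaGGGGGtGGG
HOXD3 motif, chr2:177005416-177005432, plus strand: GGGccGGGGaGGGcGGG

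HOX genes carried endogenous G4s less often than protein-coding genes in general, and no HOX gene of HepG2 was in the high-confidence list. A gene was counted as carrying a G4 when an interval shared at least 1 bp with its body or with the 1 kb upstream of any of its transcription start sites (TSSs). In K562, 4 of 39 HOX genes (10.3%, exact 95% interval 2.87 to 24.2) had a high-confidence interval, against 37.9% of all protein-coding genes. In HepG2 the count was 0 of 39, with an upper limit of 9.03%, against 34.5%. With the lower-confidence lists, 10 HOX genes (25.6%, 13 to 42.1) were reached in K562 against 54.0% of all genes, and 7 (17.9%, 7.54 to 33.5) in HepG2 against 57.6%. These intervals cover the counting of genes, and neighbouring HOX genes are not independent, since a single interval can lie in several of them. With only the canonical transcript of each gene, which Ensembl marks as representative, 1 HOX gene (HOXB9) remained in the K562 high-confidence list and 5 in the lower-confidence list, because the other intervals lay in introns of long alternative transcripts or beside alternative starts.

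The stretches searched differed in length, and the part of length in these shares was not tested. The stretch searched had a median of 5216 bp for a HOX gene and of 28219 bp for a protein-coding gene, so a HOX gene offered less DNA in which an interval could fall. Promoters differ less in this way, as 1 kb is taken before each TSS, although genes with more start sites have more such windows. High-confidence intervals lay in 1 of 39 HOX promoters in K562 (2.56%, 0.0649 to 13.5) against 34.6% of all promoters, and in 0 in HepG2 against 29.6%. Lower-confidence intervals lay in 4 HOX promoters in K562 (10.3%, 2.87 to 24.2) against 48.5%, and in 5 in HepG2 (12.8%, 4.3 to 27.4) against 48.9%. The share of HOX genes was again below the background in every list. No expression or open-chromatin measure comes with the lists, and their part in this difference was not tested.

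**Figure D1:**
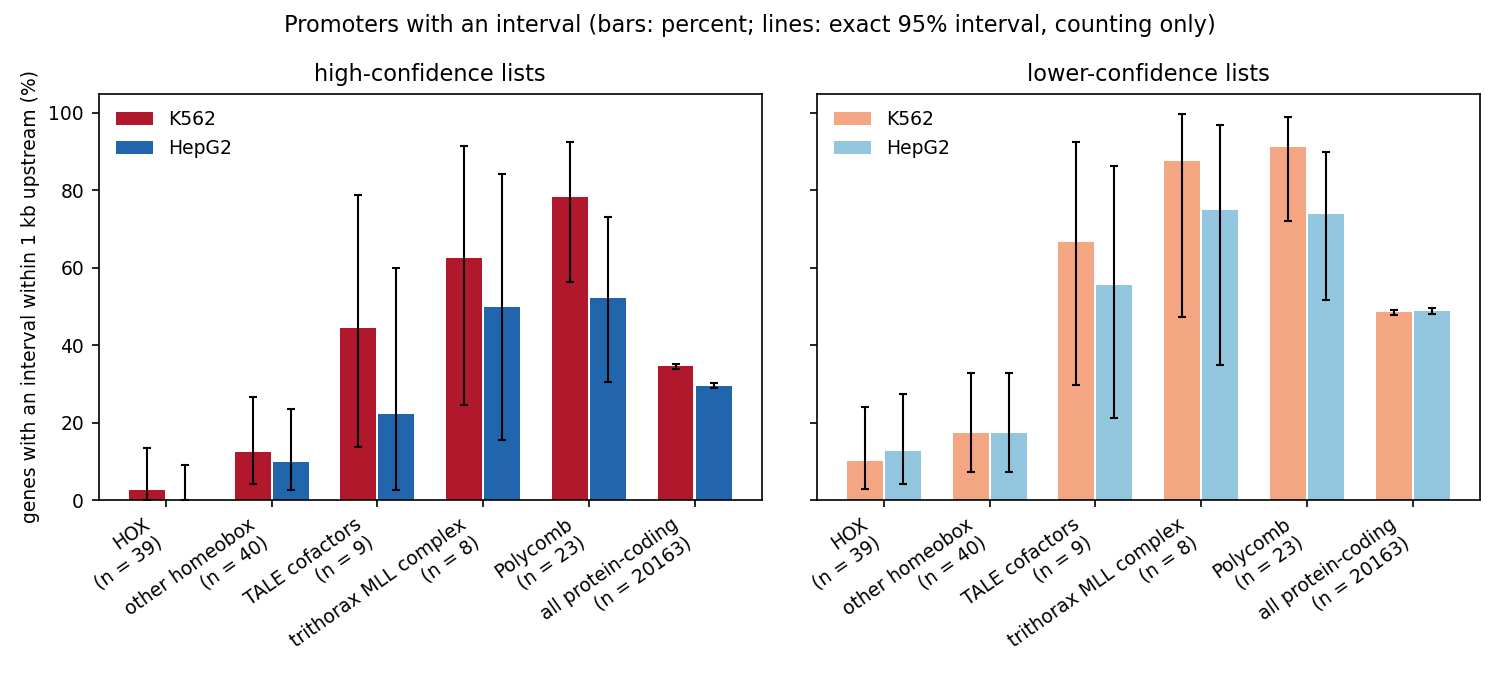
Percent of genes with an interval within 1 kb upstream of a TSS, for HOX genes, 4 other gene lists and all protein-coding genes, in K562 and HepG2, with the high-confidence lists on the left and the lower-confidence lists on the right. Bars give the percent and lines the exact 95% interval, which covers counting only. Among the lists drawn, HOX genes have the lowest bars, from 0 to 12.8%. The small CDX and ParaHox and EVX lists, with 0 promoters in each list of intervals, are not drawn. Nor is the list of 6 DLX genes, with shares from 16.7 to 66.7%.

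HOX promoters were not poorer in median GC content or in motifs than all promoters. The 1 kb before the canonical TSS, 1 window of equal length for each gene, had a median GC content of 56.9% in HOX genes (45 to 65.8%) and of 53.3% in all genes. The ratio of observed to expected CpG dinucleotides had a median of 0.586 in both. A complete G4 motif, on either strand, was found in 27 of 39 HOX promoters (69.2%) and in 47% of all promoters of the same length. Among promoters that hold a motif, 1 of 27 in HOX (3.7%) had a K562 high-confidence interval, against 39.1% of all motif-holding promoters. For the K562 lower-confidence list the counts were 4 of 27 (14.8%) against 53%. In HepG2 they were 0 of 27 against 30.1% with the high-confidence list, and 2 of 27 (7.41%) against 49.5% with the lower-confidence list. Restricting promoters to the range of GC content from 52 to 60.3%, which held 19 HOX promoters, left 1 of 19 called in the K562 high-confidence list against 40.3% of the other genes, and 0 of 19 in HepG2 against 34.8%.

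Across all lists, 14 of 39 HOX genes had an interval (35.9%, 21.2 to 52.8), beside 64.7% of all protein-coding genes, and 25 had none. The 3 HOX genes with a lower-confidence interval in both lines were HOXC6, HOXC9 and HOXC10. Another 7 had an interval in K562 but not in HepG2, and 4 in HepG2 but not in K562. Genes reached in both lines thus made up 7.69% of HOX genes (1.62 to 20.9) and 46.8% of all protein-coding genes. Of all 20163 protein-coding genes, 10878 were reached in K562, 11619 in HepG2 and 9445 in both. Genes reached in a single line were thus also found outside HOX, and the split between the lines was not tested. At promoters, 0 of 39 HOX genes (upper limit 9.03%) had a lower-confidence interval in both lines, beside 40.9% of all protein-coding genes.

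Among the anterior genes, of paralog groups 1 to 3, which pattern the hindbrain and neck, 0 of 8 had a high-confidence interval in either line. Over all protein-coding genes the shares were 37.9% in K562 and 34.5% in HepG2. Lower-confidence intervals reached HOXB3 and HOXD3 in K562 and HOXA3 and HOXD1 in HepG2. HOXA3, needed for the thymus and parathyroid glands, had the most intervals of any HOX gene in a single list, with 4 in HepG2 and none in K562. A long transcript bears on this count: the body of HOXA3 runs across HOXA4, HOXA5 and HOXA6, and 2 of the 4 intervals are those in the HOXA4 and HOXA5 promoters. The remaining 2, at chr7:27162037-27162174 and chr7:27162918-27163008, lay in a HOXA3 intron, 44 and 176 bp past a start of HOXA-AS2, a non-coding RNA gene of the cluster. HOXB3 had 2 intervals in K562, of which that at chr17:46656002-46656228 was also in the HOXB4 promoter and that at chr17:46662742-46662950 was intronic. The HOXD3 interval, whose sequence is given, lay in an intron, 3698 bp past the nearest HOX TSS. At HOXD1 the HepG2 interval chr2:177053310-177053466 was centred 8 bp before the TSS and ran into the 5′ UTR, and no other interval in the clusters was so close to a HOX start. HOXA2, HOXB1 and HOXB2, which set the identity of hindbrain segments, had no interval in any list.

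The central genes, of groups 4 to 8, held 3 of the 4 HOX genes in the K562 high-confidence list: HOXB7, HOXC4 and HOXC6. That made 3 of 15 central genes (20%), beside 0 of 8 anterior and 1 of 16 posterior ones (6.25%). Over all protein-coding genes the share was 37.9%. With canonical transcripts only, 1 HOX gene remained in this list, the posterior gene HOXB9. The order of the 3 groups thus depends on the transcripts counted. The HOXC4 and HOXC6 calls came from a single interval of 177 bp with a GC content of 73.4%, which lay in introns of long transcripts of both genes. It was 1111 bp past the start of the long HOXC4 transcript and in the canonical region of no HOX gene. HOXB7 had 2 high-confidence intervals, which were also in introns of a long transcript. That at chr17:46703861-46704231 was the HOXB9 promoter interval. The other, of 98 bp, held no complete motif at a GC content of 55.1%, and its nearest TSS was that of MIR196A1, the gene of a microRNA known to target HOX transcripts, 1252 bp away. HOXB4, a regulator of blood stem cells, had a K562 lower-confidence interval centred 403 bp before its TSS, with 8 runs of at least 3 G on each strand and yet no motif.

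In HepG2 the central genes with an interval were HOXA4, HOXA5 and HOXC6, all in the lower-confidence list. The HOXA4 interval was centred 276 bp before the nearest HOXA4 TSS and had a GC content of 69.5%, with 7 runs of G on the plus strand and no motif. HOXA5, which is needed for lung development, had its interval 114 bp before the TSS. This was the interval of lowest GC content in the clusters, 45.8%, and as its sequence shows it carried no run of 3 G on either strand. HOXC6 had 2 intervals, at chr12:54388115-54388214 and chr12:54399880-54399950, and the first of these was in the promoter of both HOXC6 and HOXC9. The central genes HOXA6, HOXA7, HOXB5, HOXB6, HOXB8, HOXC5, HOXC8, HOXD4 and HOXD8 had no interval in any list.

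Among the posterior genes, of groups 9 to 13, which pattern the lower trunk, limbs and genital tract, HOXB9 was the only one of 16 in the K562 high-confidence list, and its promoter the only HOX promoter. Its interval of 371 bp was centred 326 bp before the TSS and had a GC content of 66.8% and 18 runs of at least 3 G on the plus strand. The lower-confidence interval around it, chr17:46703769-46704261, was 493 bp wide, the widest in the clusters. In the K562 lower-confidence list HOXC13, a regulator of hair and nail keratins, had a promoter interval centred 240 bp before its TSS, and HOXC10 had its promoter interval 85 bp before. The K562 interval at HOXC9, chr12:54389313-54389574, covered part of a 5′ UTR and the intron after it, and held 1 motif. In HepG2 the posterior genes with an interval were HOXC9, with an interval 514 bp before the nearest TSS, and HOXC10, with an intronic interval at chr12:54382370-54382447.

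The remaining posterior genes had no interval in any list. These were HOXA9, HOXA10, HOXA11, HOXA13, HOXB13, HOXC11, HOXC12 and HOXD9 to HOXD13. They include HOXA9, a partner of MEIS1 in acute leukemias that carry MLL fusions, and HOXA13 and HOXD13, which shape the digits. Motifs were present in the regions of all 39 HOX genes, from 1 in HOXA2 and HOXA11 to 55 in HOXC6.

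HOXA9 had 11 motifs in its region and HOXA10 also 11, and both were empty. Of the genes with the most motifs, HOXC6 with 55, HOXB3 with 53 and HOXC4 with 40 had an interval in K562. They also had long stretches searched, of 41200, 57043 and 40100 bp beside 2677 bp for the shortest, HOXD4. HOXA3, with 47400 bp and 31 motifs, had no interval in K562 and 4 in HepG2. Motif count and length could not be told apart in this comparison.

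Each whole cluster was taken from the outer edge of its outermost gene to the other, with the 1 kb upstream window. HOXB spanned chr17:46605888-46807112, HOXC chr12:54331615-54449814 and HOXD chr2:176956449-177055635, and with HOXA on chromosome 7 the clusters covered 526711 bp. Across these, K562 had 3 high-confidence and 11 lower-confidence intervals, and HepG2 had 0 and 9. The lines differed in where these lay. HOXA held 0 K562 and 4 HepG2 lower-confidence intervals, HOXB 5 and 1, HOXC 5 and 3, and HOXD 1 and 1. Placement was alike in kind: 4 of 11 K562 intervals and 4 of 9 HepG2 intervals were in a HOX promoter, 6 and 4 were in HOX introns outside promoters, and 1 in each line was outside every HOX gene region. Those were at chr17:46755839-46756038 in K562 and at chr17:46713964-46714122 in HepG2, both in the long stretch between HOXB9 and HOXB13. The former was in an intron of LINC02086 and the latter in an exon of LINC03057, both non-coding.

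**Figure D2:**
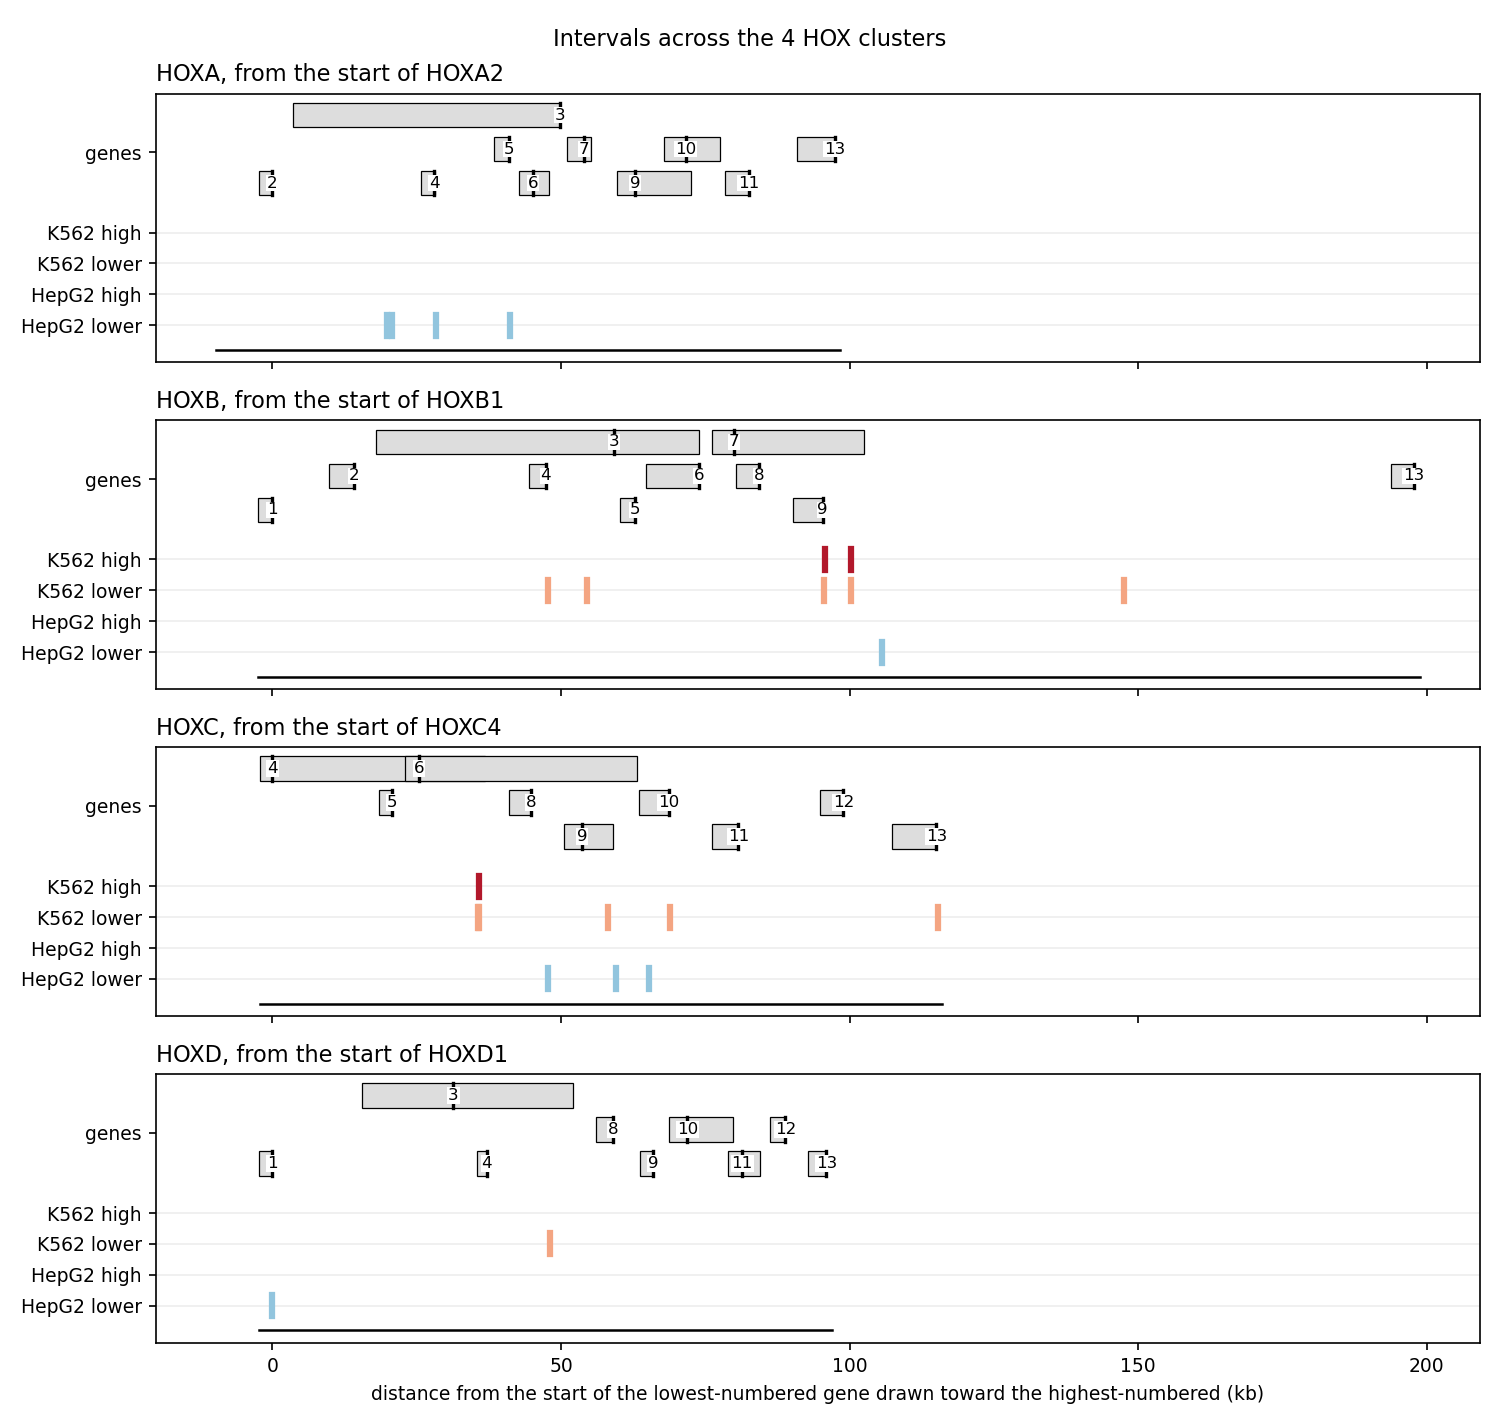
The 4 HOX clusters to scale, each drawn from the start of the lowest-numbered gene shown toward the highest-numbered, with distance in kb on the horizontal axis. Grey boxes are gene bodies with the gene number at the canonical start, coloured ticks are interval centres in each list (tick width is not interval width), and the black line is the stretch counted. K562 ticks are in HOXB, HOXC and HOXD, HepG2 ticks are in all 4 clusters, and no tick of one line coincides with a tick of the other.

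Counted per length rather than per gene, the clusters did not have fewer lower-confidence intervals than protein-coding genes. HOX genes lie close together, with 39 in 526711 bp of the clusters, beside 20163 protein-coding genes in 1320130267 bp. The density of intervals per start was not computed, so the densities below do not bear on it. The clusters were counted with the DNA between their genes, and the protein-coding regions without it. K562 had 2.09 lower-confidence intervals per 100 kb of the clusters and 1.2 per 100 kb of all protein-coding genes with their upstream windows, and HepG2 had 1.71 and 1.67. By summed width the lines differed. The HepG2 intervals came to 1040 bp in the clusters and 4760165 bp in protein-coding genes, a smaller share of the clusters. In K562 they came to 2373 and 4014865 bp, a larger share of the clusters. For the high-confidence lists the densities were 0.57 and 0.616 in K562, and 0 and 0.561 in HepG2. Clusters differed from their own chromosomes in both directions. In HOXC, K562 had 4.23 lower-confidence intervals per 100 kb beside 0.622 on chromosome 12 as a whole, and in HOXA, HepG2 had 3.7 beside 0.691 on chromosome 7. In HOXB, HepG2 had 0.497 beside 3.18 on chromosome 17. With 0 K562 intervals in 108099 bp of HOXA and 0.676 per 100 kb on chromosome 7, a lack of intervals was not detectable at that length. All these densities rest on at most 5 intervals in a cluster.

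The clusters were dense in G4 motifs, and most of these lay outside the lists. The clusters held 368 G4 motifs, or 69.9 per 100 kb, against 16.5 per 100 kb in protein-coding genes with their upstream windows and 12.3 in the genome. HOXC was the densest, with 98.1 per 100 kb, followed by HOXD with 67.5, HOXA with 64.8 and HOXB with 57.1. Of the 368 motifs, 4 had a base in a K562 high-confidence interval (1.09%, 0.297 to 2.76) and 7 in a lower-confidence one (1.9%, 0.768 to 3.88). The shares over protein-coding genes were 2.28% and 4.14%. In HepG2 the counts were 0 (upper limit 0.997%) and 1 (0.272%, 0.00688 to 1.5), against 1.29% and 3.45%. The exact intervals of the clusters thus held the share of protein-coding genes for the K562 high-confidence list and lay below it for the other 3 lists. Beside the shares over the genome, which were 1.42% and 2.65% in K562 and 0.814% and 2.26% in HepG2, the exact interval lay below for the HepG2 lower-confidence list alone. Motifs close to one another fall in the same interval, so these limits are too narrow.

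**Figure D3:**
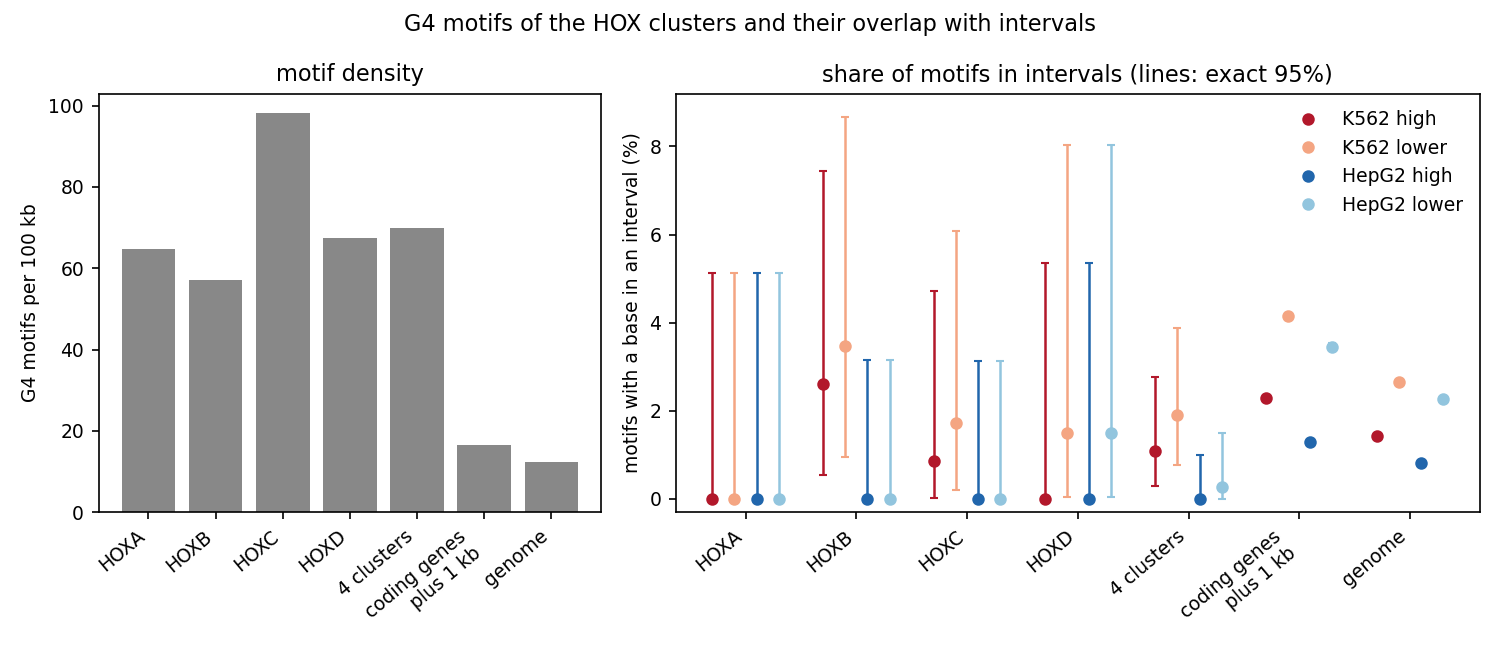
Left, G4 motifs per 100 kb in each HOX cluster, in the 4 clusters together, in protein-coding genes plus 1 kb upstream and in the genome. Right, the percent of these motifs with at least 1 base in an interval of each list, with exact 95% intervals for counting. The clusters have the taller bars, from 57.1 to 98.1, and in the 4 clusters together the points are at or below 1.9%.

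The share of cluster intervals with a complete motif was not set apart from that of the whole lists at these numbers. In K562, 2 of 3 high-confidence intervals (66.7%, 9.43 to 99.2) and 4 of 11 lower-confidence ones (36.4%, 10.9 to 69.2) contained a motif, beside 31.9% and 28.9% of all intervals of those lists. In HepG2, 1 of 9 lower-confidence intervals did (11.1%, 0.281 to 48.2), beside 18%, and it was that at HOXD1. Loosely spaced G runs were more common than motifs: 9 of the 11 K562 intervals and 5 of the 9 HepG2 intervals had at least 4 runs of 3 G on a strand. Adding 50 bp on both sides raised the number with a motif to 7 in K562 and left it at 1 in HepG2. GC content ran from 56.8 to 78.6% in K562, with a median of 67.6%, and from 45.8 to 71.1% in HepG2, with a median of 65.9%. The HepG2 intervals were narrow, with a median width of 100 bp (71 to 174) beside 173 bp over that list, whereas the K562 ones had a median of 200 bp (14 to 493) beside 212 bp.

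Few of the lower-confidence intervals were backed by the stricter list. Of the K562 lower-confidence intervals in the clusters, 3 of 11 held a high-confidence one (27.3%, 6.02 to 61), beside 45.3% in the genome. In HepG2 it was 0 of 9 (upper limit 33.6%), beside 29.2%. The clusters' exact intervals hold the genome's share in both lines, so a difference from the rest of each list was not detectable with so few intervals.

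No interval in the clusters was shared between the lines. Of the 11 K562 lower-confidence intervals, 0 overlapped the HepG2 lower-confidence list (upper limit 28.5%), whereas 53.3% of all K562 lower-confidence intervals did. In the other direction it was 0 of 9 (upper limit 33.6%) beside 36.6%. The exact intervals lay below the shares of the whole lists in both directions. Neighbouring intervals are not independent, so these limits are too narrow. High-confidence intervals overlapped the other line's lower-confidence list more often, 75.6% in K562 and 67.1% in HepG2 over the genome. Only 3 of the 11 K562 cluster intervals and 0 of the 9 HepG2 ones held a high-confidence interval. The part of this in the contrast was not tested. The closest approach was at HOXC9, where the K562 interval chr12:54389313-54389574 and the HepG2 interval chr12:54388115-54388214 were 1099 bp apart. HOXC6, HOXC9 and HOXC10, the genes reached in both lines, were thus reached through different intervals.

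The nearest high-confidence intervals outside the clusters were compared in the same way, a comparison added after the values were seen. Over the whole lists, 51.1% of K562 and 53.9% of HepG2 high-confidence intervals overlapped the other line's. At HOXA, HOXB and HOXD the first interval on each side overlapped between K562 and HepG2, in 6 of 6 cases, and at HOXC in 0 of 2. Those 6 shared intervals lay near the starts of SKAP2 and HIBADH beside HOXA, SNX11 and TTLL6 beside HOXB, and LNPK and HNRNPA3 beside HOXD. Their centres were between 48 and 233 bp from these TSSs. Between its shared neighbours, HOXA lay in a stretch of 798 kb without a high-confidence interval in either line, and HOXD in a stretch of 1210 kb. Stretches at least as long as that around HOXA made up 8.72% of the stretches between neighbouring K562 intervals and 9.02% of those in HepG2, and for HOXD 6.31% and 6.46%. In HepG2 HOXB and HOXC lay in stretches of 709 kb and 454 kb, and 10% and 14.4% of stretches were at least as long. All these shares count stretches whatever their length. Long stretches hold more bases, so the share of the genome in stretches at least as long is larger. That share was not computed, and the counts do not show that these positions are unusual.

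Genes that work with or on HOX genes were counted in the same way, by lists. TALE cofactors, the PBX, MEIS and PKNOX proteins that bind DNA together with HOX proteins, had a high-confidence interval in 4 of 9 genes in K562 and 2 of 9 in HepG2, beside backgrounds of 37.9% and 34.5%. PBX3 and PKNOX1 had one in both lines, and MEIS1 had a lower-confidence interval in HepG2 and none in K562. Of the trithorax MLL complex, which activates HOX genes, 5 of 8 genes were reached in K562 and 4 in HepG2 with the high-confidence lists. KMT2B, MEN1, ASH2L and DPY30 were reached in both. KMT2A, the MLL gene itself, was reached in K562 and had a lower-confidence interval in its promoter in HepG2. Of the Polycomb genes, which silence HOX genes, 18 of 23 (78.3%, 56.3 to 92.5) were reached in K562 and 12 of 23 (52.2%, 30.6 to 73.2) in HepG2. EZH2, SUZ12, RBBP7, BMI1, CBX2, CBX7 and RNF2 were in the K562 high-confidence list and not in that of HepG2, and EED the other way round. Of these, EZH2, SUZ12, RBBP7 and BMI1 had a HepG2 lower-confidence interval and EED a K562 one. The high-confidence lists of both lines held 11 of the 23 Polycomb genes (47.8%), beside 26.3% of all protein-coding genes. Of all 20163 protein-coding genes, 7651 had a high-confidence interval in K562, 6952 in HepG2 and 5309 in both. The split of Polycomb genes between the lines was not tested.

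Other homeobox families had shares nearer to those of HOX genes, and the difference from HOX was not tested. Of 40 genes of 7 other homeobox families, among them LHX, IRX, NKX, MSX, EMX and OTX, 5 (12.5%, 4.19 to 26.8) had a high-confidence interval in each line, among them MSX1, OTX1 and SIX5 in both. Their median stretch of 6606 bp was close to that of HOX genes, and 75% of their promoters held a motif. With the lower-confidence lists 8 of 40 (20%) were reached in K562 and 9 (22.5%) in HepG2, beside 25.6% and 17.9% of HOX genes. Over all protein-coding genes the shares were 54.0% in K562 and 57.6% in HepG2 with those lists. With the high-confidence lists they were 37.9% and 34.5%. Promoters with a high-confidence interval made up 12.5% in K562 and 10% in HepG2, beside 2.56% and 0% for HOX, with exact intervals that overlap. The DLX genes, homeobox genes of the jaw and forebrain, had a high-confidence interval in 2 of 6 genes in K562 and 1 of 6 in HepG2. The CDX and ParaHox genes, among them the CDX factors that activate HOX genes, had 0 of 6 and 1 of 6, the latter being CDX2. EVX1 and EVX2, which adjoin HOXA and HOXD, had no interval in any list.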

How the data were processed

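G4 ChIP-seq had been performed by the authors in K562 and HepG2. Per the labels, reads were aligned to hg19. Per the study's methods, peaks were called for each replicate with MACS2 and intersected between replicates with bedtools. The values the authors deposited are interval positions in bp, with no score. No column of another sample was present. Replicates could not be compared, so no test was run, and shares carry exact (Clopper-Pearson) 95% intervals that cover counting only. The labels call the replicates technical, whereas the study describes independent experiments with technical replicates in each, so the replicates behind a list are of both kinds.

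Intervals were converted to positions counted from 1 and compared with GRCh37 and GENCODE version 44 lifted to that build, whereas the study used an earlier GENCODE version. No interval ended beyond its chromosome. Gene shares are over 20163 protein-coding gene entries. Sequences were read from the GRCh37 genome. Overlap and motif functions, written in Python 3.11.15, were tested on simulated data with scipy 1.17.1 used for the intervals. Every HOX gene with an interval was to be named. Some items are not reported here. The members and gene lists were chosen with earlier results of these data known. The alternatives tried were other overlap rules, upstream windows of 500 bp and 2 kb, canonical transcripts, interval widths of at least 50 bp, cluster limits, merging within 100 bp and other motif definitions.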

Additional observations from a re-analysis of the deposited data

How the results depend on the processing

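Of 59 alternative values, 56 stayed close to the main value (counts within 1.5 times, shares within the exact 95% interval). Part of this carries little weight. The HepG2 high-confidence counts of 0 cannot fall under a stricter rule. The shares rest on 3 intervals, with exact limits of 9.43 to 99.2% for that with a motif. With canonical transcripts only, HOX genes with an interval in K562 numbered 1 in place of 4 in the high-confidence list and 5 in place of 10 in the lower-confidence list, since the rule then leaves out introns of long alternative transcripts. With runs of at least 2 G, 100% of the 3 K562 high-confidence cluster intervals held a motif, in place of 66.7%. In HepG2 the count of 0 high-confidence intervals held under each alternative for genes, promoters and clusters, so the 7 alternatives for shares of those intervals could not be given. The lower-confidence cluster counts ran from 10 to 13 in K562 and from 8 to 9 in HepG2. Leaving out replicates was not possible, as the lists are merged over replicates. No paired analysis was possible because no result comes from a test.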
